A study of Mus musculus with 21 samples.

Results

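Wide Ash1L domains were taken as the regions of at least 2000 bp in the 3 lists of Ash1L peaks from differentiating C2C12 cells. They were chosen by width alone, on chromosomes 1 to 19 and X, and summits that share a start and an end were counted as 1 domain. Of the 503 peaks in the lists, 99 were domains, with 34 of 240 in replicate 1, 23 of 35 in replicate 2 and 42 of 228 in replicate 3. These 99 domains lay in 42 of the 259 regions that remain when the lists are merged.

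C2C12 is an established mouse myoblast line whose cells differentiate and fuse when growth factors are withdrawn. The cells were kept for 24 h, to day 1 of differentiation, in DMEM with 2% donor horse serum, and chromatin bound by Ash1L was precipitated with a rabbit antibody in 3 independent experiments. The authors called narrow and broad peaks in each replicate against input chromatin, and the domains described here come from the narrow lists. The 18 other samples of the series, with RNA, histone marks, input and IgG, were not analysed here.

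The enzyme Ash1L, of the Trithorax group, places the histone mark H3K36me2 and opposes the Polycomb proteins, which keep genes silent. Trithorax and Polycomb proteins maintain the on and off states of genes that control development, of which the Hox genes, the transcription factors that set position along the body axis, are the classical example. In muscle precursors, factors such as Pax7 act upstream of the myogenic programme.

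Each line of a list is 1 summit, a local maximum of the signal within a peak, and its last column was read as −log10 of the q value. A larger value means stronger statistical evidence of an excess over input, which is not the size of that excess. The lists give a letter but no position for each summit, and they hold no numbers of reads, which leaves the depth unknown. Every domain was selected on its width, which goes with the number of summits and with the values. The figures on these are therefore descriptions of the 3 lists, and no test was run between regions.

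The DNA under the domains differed from region to region in base composition. Windows of 150 bases are shown for the 6 named regions with the highest values among those with a domain in all 3 lists. Each lies as close as possible to the middle of the stretch that the domains of all 3 lists share, outside annotated exons, on the plus strand of mm10 (GRCm38), with CpG dinucleotides in capitals.
Lncppara intron, chr15:85666242-85666391: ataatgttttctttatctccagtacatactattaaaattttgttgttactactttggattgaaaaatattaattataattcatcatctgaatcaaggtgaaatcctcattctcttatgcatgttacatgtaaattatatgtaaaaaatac
Hoxa9 intron, chr6:52228097-52228246: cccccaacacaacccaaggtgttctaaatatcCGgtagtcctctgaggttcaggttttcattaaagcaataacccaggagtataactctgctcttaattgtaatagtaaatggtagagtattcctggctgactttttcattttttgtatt
Bahcc1 intron, chr11:120236123-120236272: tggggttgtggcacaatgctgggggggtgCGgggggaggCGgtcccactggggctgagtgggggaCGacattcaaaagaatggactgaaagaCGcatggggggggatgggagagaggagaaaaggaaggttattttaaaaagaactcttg
Between Hoxc11 and Hoxc10, chr15:102960062-102960211: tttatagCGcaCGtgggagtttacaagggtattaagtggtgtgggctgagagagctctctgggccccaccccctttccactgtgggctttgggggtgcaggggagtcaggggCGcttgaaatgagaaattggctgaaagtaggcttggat
Eya1 intron, chr1:14308037-14308186: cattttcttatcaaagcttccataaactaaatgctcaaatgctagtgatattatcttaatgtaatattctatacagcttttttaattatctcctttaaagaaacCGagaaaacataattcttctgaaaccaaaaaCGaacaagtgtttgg
Meis1 intron, chr11:19016360-19016509: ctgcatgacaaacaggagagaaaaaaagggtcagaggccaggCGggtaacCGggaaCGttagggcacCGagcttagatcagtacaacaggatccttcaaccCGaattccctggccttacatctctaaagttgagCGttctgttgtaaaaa
The window in Lncppara held no CpG and 23.3% GC, whereas the window in Bahcc1 held 4 CpG and 56.0% GC. The window of Hoxa9 had 38.0% GC and 1 CpG, and that of Meis1, with 48.7% GC, held 6 CpG. Over the whole merged regions, the GC content was 41.3% at Lncppara, 57.2% at Bahcc1, 52.4% at Hoxa9 and 47.5% at Meis1. A window can therefore depart from its region.

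Promoters of 2 named genes in the RefSeq table (GRCm38) lay wholly inside such a shared stretch. The 150 bases before the RefSeq start are shown, on the minus strand, which both genes use, with CpG in capitals. These starts differ from the GENCODE M21 gene starts used for the distances given later, at position 52231089 for Hoxa9 and 120236122 for Gm11772.
Hoxa9, chr6:52227371-52227520: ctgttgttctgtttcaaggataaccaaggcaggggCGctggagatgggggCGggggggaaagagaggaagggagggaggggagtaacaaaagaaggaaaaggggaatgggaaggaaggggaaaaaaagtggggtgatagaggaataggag
Gm11772, chr11:120238037-120238186: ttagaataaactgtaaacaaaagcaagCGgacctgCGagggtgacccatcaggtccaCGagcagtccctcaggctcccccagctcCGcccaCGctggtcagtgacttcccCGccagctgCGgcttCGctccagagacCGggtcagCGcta
The promoter of Hoxa9 held 2 CpG and the promoter of Gm11772, an antisense gene inside Bahcc1, held 10. Of the 53 genes assigned to regions with a domain, 23 have an entry in this table.

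Mature miRNAs of assigned genes lay inside 1 region of the HoxA cluster and 1 of the HoxC cluster. Mir196b lies at Hoxa9 and Mir196a-2 lies between Hoxc10 and Hoxc9, and both make a miRNA of the miR-196 family, which is known to target Hox transcripts. Their 5p forms are shown with the seed, bases 2 to 8, in capitals.
mmu-miR-196b-5p, chr6:52230129-52230150, minus strand: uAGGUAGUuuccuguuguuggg
mmu-miR-196a-5p, chr15:102973365-102973386, plus strand: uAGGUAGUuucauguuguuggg
The 2 miRNAs share their seed.

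The domains took a small part of the peaks of replicates 1 and 3 and a large part of their summits. In replicate 1, 14.2% of the peaks were domains, and they held 436 of 779 summits (56.0%) and 52.3% of the bases in peaks. In replicate 3, 18.4% of the peaks held 557 of 868 summits (64.2%) and 60.1% of the bases. The narrowest peak on a chromosome was 1035 bp wide in replicate 2, against 236 bp in replicate 1 and 277 bp in replicate 3. In replicate 2, 65.7% of the peaks were domains, with 110 of 129 summits (85.3%) and 87.7% of the bases. Over the 3 lists, the number of domains was 33 ± 9.54 (mean ± SD, n = 3).

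The domains of replicate 2 were broad with few summits, and those of replicates 1 and 3 held many. The median domain had 11 summits in replicate 1 (4 to 44), 5 in replicate 2 (2 to 12) and 10 in replicate 3 (3 to 45). The median width was 3649 bp, 4743 bp and 3442 bp. Per kb of domain, the median was 2.97 summits in replicate 1, 0.965 in replicate 2 and 3.05 in replicate 3. The highest density in replicate 2 was 1.44 per kb, below the lowest of replicate 1, 1.67, so these 2 lists did not overlap in this measure, whereas replicate 3 reached down to 1.22. In the narrower peaks replicate 2 was also lowest, with medians of 2.93, 1.16 and 2.66 summits per kb, and the cause of the lower density in replicate 2 was not tested. No domain had a single summit, against 131 of 194 narrower peaks in replicate 1, 5 of 11 in replicate 2 and 115 of 171 in replicate 3.

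Wider domains held more summits in each list. Across domains, Pearson's r between width and number of summits was 0.94 in replicate 1 (34 domains), 0.95 in replicate 2 (23) and 0.98 in replicate 3 (42). The relation of width to the highest value was looser, with r of 0.62, 0.53 and 0.59. The domains of a list share 1 library and 1 input, and neighbouring domains are not independent.

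**Figure D1:**
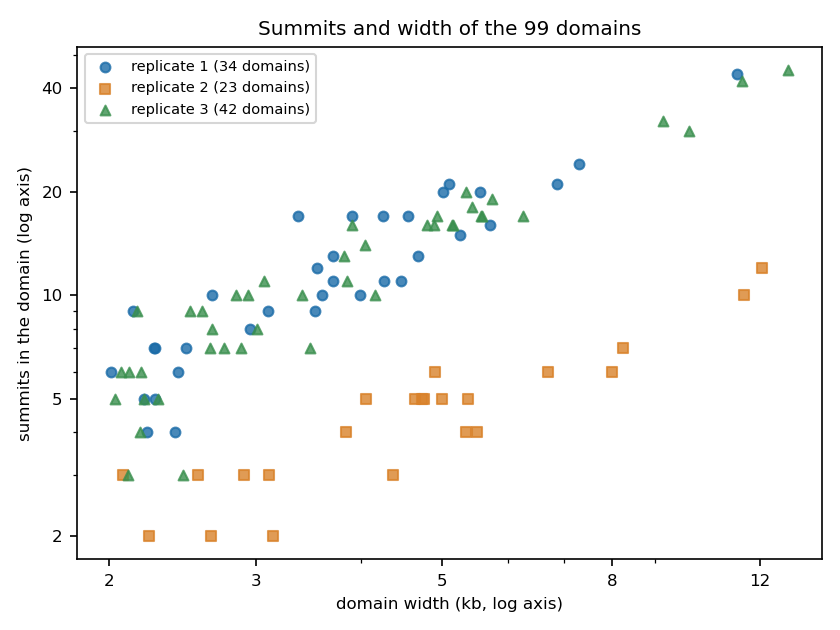
Summits in each domain against its width in kb, both on log axes, with 1 point for each of the 99 domains, coloured by replicate. Most domains of replicate 2 lie below those of replicates 1 and 3 of like width, with a few of replicate 3 as low near the threshold, and they reach 12 summits at most, against 44 and 45.

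The values within a domain spanned a wide range. The median over domains of the highest −log10 q was 30.6 in replicate 1, 14.4 in replicate 2 and 26.9 in replicate 3, and that of the lowest summit was 5.88, 2.81 and 5.97. In the median domain, 55.3%, 60.0% and 60.0% of the summits had at least 50% of the value of the domain's highest summit. All domains of replicates 1 and 3 reached a highest value of at least 5, whereas 3 of replicate 2, at Zbtb20, Ebf3 and Foxc2, did not. The highest summit was the first or last of its domain in 3 of 34 domains of replicate 1, 8 of 23 of replicate 2 and 10 of 42 of replicate 3.

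The narrower peaks had lower values for the most part, with a median highest −log10 q of 7.76, 3.87 and 6.60 in the 3 lists. Width and value did not always go together. Among the 10 peaks with the highest values, domains made up 6 in replicate 1, 10 in replicate 2 and 9 in replicate 3. The highest value of replicate 1, 280.4, belonged to a peak of 589 bp on chromosome 17 (chr17:4626134-4626722) that is no domain. Its region had 63.3% repeat-masked bases, and 60.8% of its sequence words, counted as described later, occurred more than once. The regions of narrower peaks at 94.8, 72.8 and 51.3 in replicate 1 had shares of 36.4%, 34.3% and 34.4% of such words. The median of the regions with a domain was 0.924%. The part of such copies in these values was not tested. Values tie often in replicates 1 and 3, where 74.3% and 71.1% of all summits share their value with another, against 6.20% in replicate 2.

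Just inside the threshold were a domain of 2013 bp in Bahcc1 in replicate 1 (6 summits, highest −log10 q 44.4), a domain of 2033 bp in Lrig3 in replicate 3 (5 summits, 22.1) and a second domain in Bahcc1, of 2066 bp, in replicate 3 (6 summits, 55.1). Just outside were peaks of 1972 bp at Hoxc5 and Hoxc10 in replicate 1 (4 summits, 19.3), of 1902 bp in Ankrd28 in replicate 3 (6 summits, 11.9) and of 1900 bp in Eya4 in replicate 3 (5 summits, 16.6). The threshold therefore divides a continuous range of widths, with 25 peaks of 1500 to 2000 bp and 35 of 2000 to 3000 bp.

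Each domain shared at least 1 bp with a peak called in another replicate (99 of 99, 95% Wilson interval 96.3–100%). This held for 249 of 376 narrower peaks on the chromosomes (66.2%, 61.3–70.8%). An overlap of 1 bp is easier to reach for a wider peak, and the part of width in this was not tested. A domain of another replicate was met by 86 of the 99 domains (86.9%, 78.8–92.2%). Such intervals treat regions as independent and cover counting error only.

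The overlap was close between replicates 1 and 3. Of the 34 domains of replicate 1, 33 overlapped a domain of replicate 3 (97.1%), and the peaks of replicate 3 covered a median of 100% of their bases. Of the 42 domains of replicate 3, 30 overlapped a domain of replicate 1 (71.4%). Of the 23 domains of replicate 2, 21 overlapped a domain of replicate 1 and 22 a domain of replicate 3. In the other direction, 4 of 34 domains of replicate 1 and 10 of 42 of replicate 3 met no peak of replicate 2.

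What replicate 2 lists as 1 domain was often several peaks in the other lists. Of its 23 domains, 13 met 2 or more peaks of replicate 1, up to 6, and 9 met 2 or more peaks of replicate 3, up to 3. The reverse did not occur, since no domain of replicates 1 or 3 met more than 1 peak of replicate 2. In the chromosome 4 region without an assigned gene, for example, replicate 2 lists 1 domain of 8239 bp with 7 summits, where replicate 1 lists 6 peaks with 29 summits and replicate 3 lists 3 peaks with 23.

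**Figure D2:**
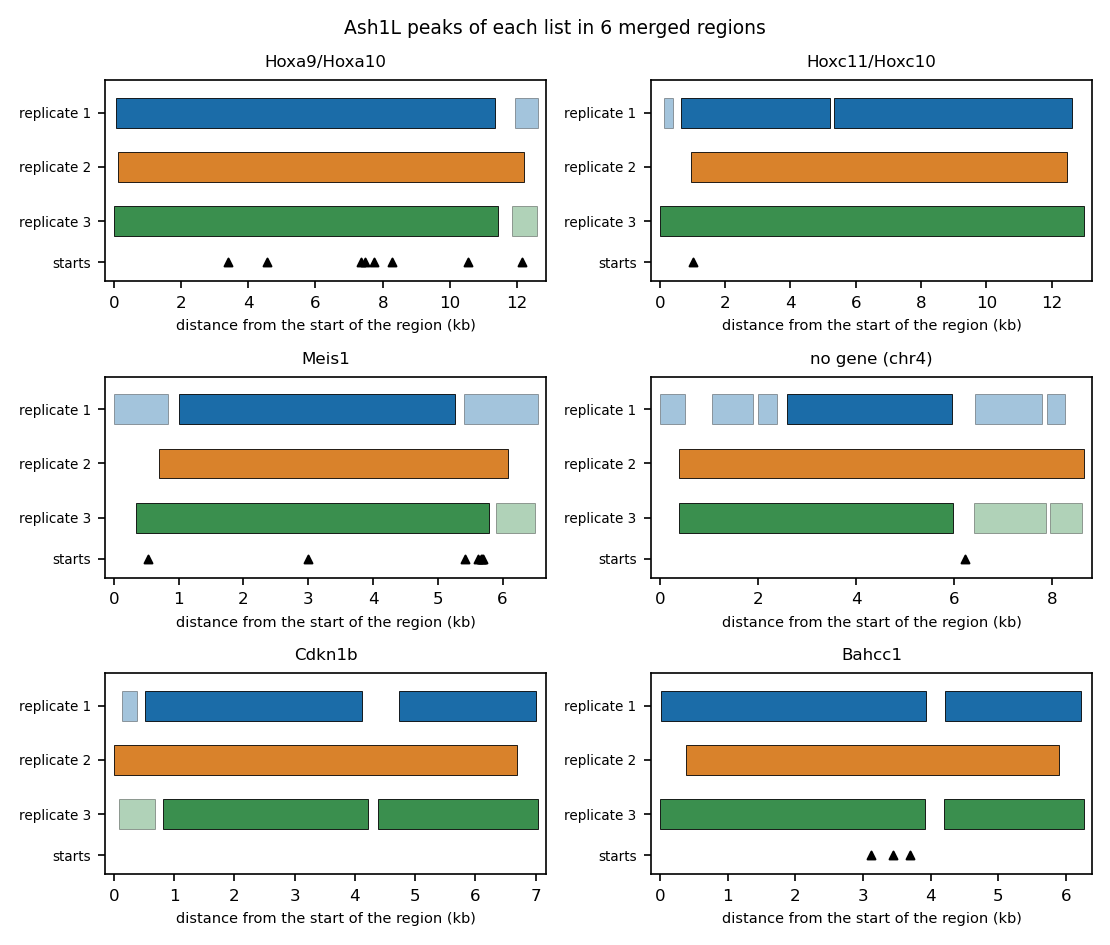
Peaks of each list in 6 merged regions, drawn to scale in kb from the start of the region, with domains in full colour, narrower peaks in pale colour and annotated transcript starts as triangles. Replicate 2 has a single bar in each of these regions, whereas replicate 1 has 2 to 6.

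At the level of merged regions, 21 of the 42 held a domain in all 3 lists, 8 in 2 lists and 13 in 1 list. Each of the 42 had a peak of some width in replicates 1 and 3, and 32 had one in replicate 2. In all of these 32 regions, the top value was lowest in replicate 2, and replicate 3 had the highest in 29. The ranking of regions was nonetheless alike, with Spearman's rho of 0.85 between replicates 1 and 2 (32 regions), 0.86 between 1 and 3 (42) and 0.89 between 2 and 3 (32). These correlations run across regions, which are not replicates, and the values rest on each list's unknown depth.

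**Figure D3:**
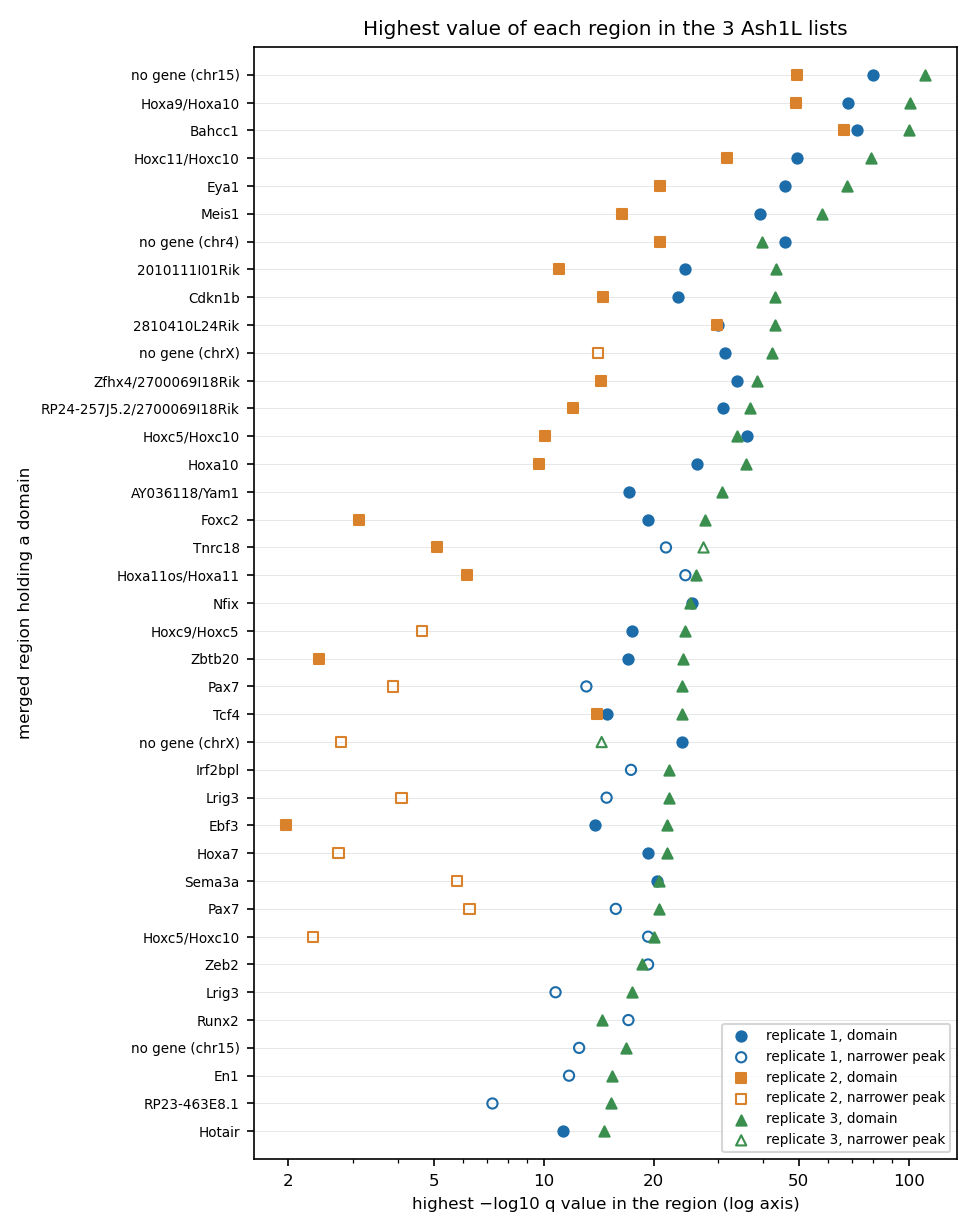
Highest −log10 q value (log axis) of the 39 merged regions that hold a domain and are reported by name or position, by replicate, with filled symbols where the list has a domain there and open symbols where it has only a narrower peak. Replicate 2 lies lowest in each of the 29 regions drawn where it has a peak, and the regions at the top hold a domain in all 3 lists.

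The Hox clusters held 9 of the 42 regions and 23 of the 99 domains (23.2%, 16.0–32.5%), and 27.4% of the bases of the 42 regions. The share of the Hox clusters among regions without a domain was not worked out, so these counts describe the 42 regions only. Only the A and C clusters were involved. Over all genes assigned to a merged region, 53 of 146 (36.3%) were assigned to a region with a domain, and the counts of each gene list stand beside this share without a test. The lists were chosen with earlier results of these data known. Of the 41 genes on the Hox list, which includes Hotair and Hoxa11os, 12 were assigned to a merged region. Of these 12, 10 were assigned to a region with a domain, beside 53 of 146 over all assigned genes. In HoxA, 5 of 11 protein-coding Hox genes were assigned to a peak and 4 to a region with a domain, and in HoxC these were 5 of 9 and 4. No gene of HoxB (10 genes) or HoxD (9 genes) was assigned to any merged region.

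The widest HoxA region lay over Hoxa9 and reached Hoxa10, posterior members of the cluster (chr6:52222802-52235406, 12605 bp). Replicate 1 listed a domain of 11270 bp with 44 summits, replicate 2 one of 12063 bp with 12 summits and replicate 3 one of 11435 bp with 42 summits. The highest −log10 q was 68.3 in replicate 1, 49.2 in replicate 2 and 101 in replicate 3. The lists agree within this region in that 90.9% of its bases lay in a peak of each of them, the highest share among the 42 regions. A second region inside Hoxa10 (chr6:52236375-52240517) had highest values of 26.4, 9.68 and 35.8, with domains of 3103, 2559 and 4054 bp.

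The other HoxA regions were domains in 2 lists. At Hoxa7 (chr6:52218973-52221422), replicates 1 and 3 had domains of 2271 and 2450 bp with highest values of 19.3 and 21.8, and replicate 2 a peak of 1452 bp at 2.74. At Hoxa11 and its antisense gene Hoxa11os (chr6:52245238-52249119), replicates 2 and 3 had domains of 3142 and 3010 bp with highest values of 6.18 and 26.2, and the widest peak of replicate 1 was 1791 bp, with 24.4 as its region's highest value. The 4 HoxA regions covered 23080 bp of a stretch of 30147 bp.

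In HoxC, 5 regions covered 32650 bp of a stretch of 37037 bp. The widest single domain of the 3 lists, 12977 bp with 45 summits in replicate 3, ran from Hoxc11 towards Hoxc10 (chr15:102953424-102966400). Replicate 2 had 1 domain there, of 11505 bp with 10 summits, and replicate 1 had 2, of 7302 and 4552 bp with 24 and 17 summits. The highest −log10 q was 49.5, 31.7 and 78.6 in replicates 1, 2 and 3. Of the bases of this region, 87.6% were in a peak of every list, and 74.7% lay outside annotated genes.

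A second HoxC region spanned Mir196a-2 and the start of Hoxc9 (chr15:102971253-102981127, 9875 bp). Its highest values were 36.1, 10.1 and 33.8, and it is 1 of the regions where replicate 3 was not the highest. Replicate 3 listed it as 1 domain of 9875 bp and replicate 1 as 2 domains, whereas replicate 2 had a domain of 3845 bp only, so that 38.9% of the bases were in every list. Further along, a region inside Hoxc9 (chr15:102982145-102985025) had domains in replicates 1 and 3, with values of 17.4 and 24.4, beside 4.64 in a narrower peak of replicate 2. The region at the start of Hoxc10 (chr15:102966732-102968933) was a domain in replicate 3 only.

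At the end of the stretch with domains, beyond Hoxc11, lay a region assigned to Hotair, a long noncoding RNA of the cluster, and to 3 small noncoding genes (chr15:102947989-102952703). Its highest values were 11.3 in replicate 1 and 14.6 in replicate 3, with no peak in replicate 2, and its highest value over all lists was the lowest among the 42 regions. It lies upstream of the annotated start of Hotair, and no base of it is in that gene.

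Among other homeobox factors, 11 of the 23 genes of the list were assigned to a merged region and 7 of these 11 to a region with a domain, beside 53 of 146 over all assigned genes. The list leaves out the homeobox genes Dlx2 and Cux1, which were assigned to narrower peaks only, so the share depends on the list. Meis1, a cofactor of Hox proteins, had domains of 4249, 5382 and 5436 bp in replicates 1, 2 and 3, with highest values of 39.1, 16.4 and 57.9 (chr11:19013294-19019832). Zfhx4, a zinc finger and homeobox protein, had values of 33.9, 14.4 and 38.3 (chr3:5218174-5224429). An adjacent region on the same chromosome, at RP24-257J5.2 and the antisense gene 2700069I18Rik, had 30.99, 12.1 and 36.8 (chr3:5210322-5216395).

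Pax7, En1 and Zeb2 were wide in replicate 3 only. Pax7, which marks muscle stem cells, had 2 adjacent regions (chr4:139822728-139826078 and chr4:139826248-139830095). Replicate 3 had domains of 3067 and 3848 bp with 20.7 and 24.0 as highest values. Replicate 1 had 3 and 4 narrower peaks there, with highest values of 15.8 and 13.1, and replicate 2 had 1 in each, with 6.27 and 3.87. En1, a factor of patterning in the nervous system and limb, had a domain of 2290 bp at 15.4 in replicate 3 and a peak of 1773 bp at 11.7 in replicate 1. Zeb2, a transcriptional repressor, had a domain of 2111 bp at 18.5 in replicate 3 and a peak of 1631 bp with the higher value, 19.3, in replicate 1. Neither En1 nor Zeb2 had a peak in replicate 2.

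Of the 22 myogenic regulators on the list, 9 were assigned to a merged region and 6 of these 9 to a region with a domain, beside 53 of 146 over all assigned genes, several of them already described as homeobox factors. Eya1, a transcriptional coactivator and phosphatase, had domains of 5256, 4058 and 4891 bp with 15, 5 and 16 summits (chr1:14305108-14310363). Its highest values were 45.8, 20.9 and 67.5. Tcf4, an E protein that pairs with myogenic factors, had domains of 2402, 5340 and 5750 bp and values of 14.9, 13.98 and 24.0 (chr18:69593103-69599628). Myf6, Eya4 and Vgll3 were assigned to narrower peaks only. Of the 12 genes of myoblast fusion, Cdon was the 1 gene with a peak, a narrower one, and none had a domain.

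Of 7 inhibitors of the cell cycle, Cdkn1b and Cdkn2c were assigned to a peak, and 1 of these 2, Cdkn1b, to domains, beside 53 of 146 over all assigned genes. Cdkn1b encodes p27Kip1, an inhibitor of cyclin-dependent kinases. Replicates 1 and 3 had 2 domains each there and replicate 2 had 1, of 6697 bp, with highest values of 23.3, 14.5 and 43.0 (chr6:134920905-134927934). The region starts inside the gene and goes on past its end, so that 34.4% of its bases lay outside genes and 90.1% of Cdkn1b was covered.

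The 12 other transcription factors of development were listed because they were known to have a peak, so their number with a peak is no result. Of them, 7 had a domain, beside 53 of 146 over all assigned genes. Foxc2, a forkhead factor of mesoderm, had domains of 2659, 2079 and 2659 bp with values of 19.3, 3.13 and 27.7 (chr8:121117921-121120604). Zbtb20, a zinc finger repressor, had 17.1, 2.43 and 24.0 (chr16:43504212-43509374), and Ebf3, a factor of the Ebf family, had 13.8, 1.97 and 21.8 (chr7:137310441-137313328). In these genes replicate 2 lay near its own lowest values, as the threshold of the lists is a −log10 q of 1.30. Nfix, a nuclear factor of fetal muscle, had domains of 3704 and 5141 bp in replicates 1 and 3 with region values of 25.5 and 25.1, and no peak in replicate 2. Runx2, a factor of bone formation, and Irf2bpl were domains in replicate 3 only, of 2115 bp at 14.4 and 2584 bp at 22.1. In the same region of Runx2, replicate 1 reached 17.1 in narrower peaks.

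Among the regions with an assigned gene outside these lists, the highest values were in Bahcc1, which encodes a protein with a BAH domain (chr11:120233007-120239262). Replicates 1 and 3 had 2 domains each there, of 3902 and 2013 bp and of 3910 and 2066 bp, and replicate 2 had 1 of 5512 bp. The highest values were 72.1, 66.3 and 99.96, and this was the highest value of replicate 2. Tnrc18, a paralogue of Bahcc1, was a domain in replicate 2 only (2235 bp, value 5.10, chr5:142813250-142817236). The widest peaks of the other lists there were 1812 bp at 21.6 in replicate 1 and 1802 bp at 18.7 in replicate 3. A peak of 1728 bp in replicate 3 reached 27.4.

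Domains in all lists were also found at 2 genes known by a clone name. At 2810410L24Rik, a noncoding gene, the values were 30.1, 29.8 and 43.0 (chr11:120185316-120189802). At 2010111I01Rik, a protein-coding gene, they were 24.4, 11.0 and 43.4 (chr13:63272758-63278815). Sema3a, a secreted guidance cue, had domains of 3527 and 2180 bp at 20.5 and 11.5 in replicates 1 and 3, and a narrower peak of replicate 3 in the same region reached 20.7. Lrig3, a membrane protein with leucine-rich repeats, had 2 adjacent domains in replicate 3 only, of 2033 and 2163 bp at 22.1 and 17.5.

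Among the 42 regions, the 1 with the highest value in replicates 1 and 3 had no assigned gene (chr15:85663296-85668938). Its domains were 5552, 4743 and 5580 bp wide with 20, 5 and 17 summits, and their highest values were 79.9, 49.3 and 111. In GENCODE M21 it lies inside the noncoding genes Lncppara and Gm49539. On either side, replicate 3 alone had a domain of 2839 bp at 15.3, assigned to a gene known by a clone name, and one of 2745 bp at 16.8, also inside Lncppara and with no assigned gene. In both flanking regions replicate 1 had narrower peaks, with 7.24 and 12.5 as highest values.

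The other regions without an assigned gene lay on chromosomes 4 and X. On chromosome 4 (chr4:88932299-88940931) the highest values were 45.8, 20.8 and 39.5, and 1 annotated gene, AL805899.1, overlapped. Adjacent regions on chromosome X overlapped no annotated gene. The first (chrX:126778788-126782612) had domains of 3708 and 3825 bp in replicates 1 and 3 with values of 31.3 and 42.1, and a peak of 1400 bp at 14.1 in replicate 2. The next (chrX:126782794-126784928) was a domain in replicate 1 only, of 2135 bp at 24.0, beside narrower peaks at 2.79 and 14.4. These 2 regions had the lowest GC contents among the 42, 25.7% and 28.4%, and the highest shares of repeat-masked bases, 47.5% and 56.7%.

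The region at the noncoding genes AY036118, Gm26917 and Yam1 (chr17:39846271-39848771) held the highest share of repeated sequence words among the 42. Replicates 1 and 3 had domains of 2418 and 2501 bp with values of 17.2 and 30.8, and replicate 2 had no peak. Of its 31-base words, 32.5% occurred more than once on the assembled chromosomes, with 4 copies at most, whereas the median of the 42 regions was 0.924%. Only the assembled chromosomes were searched, so copies missing from them are not in these counts, and the true number of copies is unknown. The next shares were 24.8% and 15.3% in the 2 regions on chromosome X and 11.2% at Irf2bpl. The part of such copies in its values was not tested.

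Regions with a domain often held a transcription start site (TSS). A TSS of any annotated transcript lay inside 23 of the 42 (54.8%, 39.9–68.8%), against 38 of the 200 regions on chromosomes without a domain (19%, 14.2–25%). Each of the 42 has a peak in 2 or 3 lists, and among the 73 regions without a domain that do too, 21 held a TSS (28.8%, 19.7–40.01%), an interval that meets that of the 42. For protein-coding transcripts these were 15 (35.7%, 23.0–50.8%) and 21 (10.5%, 6.97–15.5%), with 10 of the 73 (13.7%, 7.61–23.4%). A wider region can hold more starts, and the middle of the region gave the reverse order. The middle lay within 1 kb of a TSS in 12 of 42 regions with a domain (28.6%, 17.2–43.6%) in 80 of 200 without (40%, 33.5–46.9%) and in 34 of the 73 (46.6%, 35.6–57.9%). The intervals for the middle overlap.

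Most of the bases were in gene bodies. Of the 203706 bases of the 42 regions, 28.9% lay in exons, 56.7% in introns and 14.4% outside annotated genes. Coding sequence made up 5.56%. Of 39 pairs of a region and an assigned protein-coding gene, the region held the gene's annotated start in 10. In 8 of these 10 pairs it reached further downstream than upstream. This start is the outermost one of the gene's annotation. Other transcripts of Hoxa9 start further downstream in its region, so the split there depends on the start used. The median reach was 4975 bp downstream and 779 bp upstream. At Eya1, for example, 5128 bases lay downstream of the start and 128 upstream, and at Zfhx4 these were 5904 and 352. Hoxc9 and Hoxa11 were the exceptions, with 5186 and 3309 bases upstream and 4689 and 573 downstream.

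**Figure D4:**
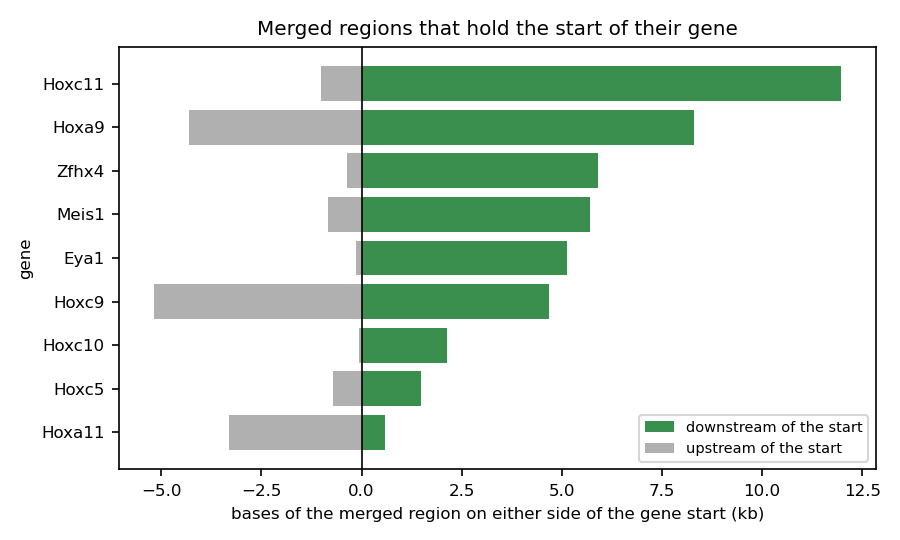
Bases of the merged region upstream (grey, to the left) and downstream (green, to the right) of the annotated gene start, in kb, for the 9 pairs drawn of a region with a domain and an assigned protein-coding gene whose start it holds. The region reaches further downstream in 7 of the 9, most of all at Hoxc11 with 11974 bases.

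Most of the regions with a domain did not have the composition of a CpG island. The median GC content was 48.9% over the 42 regions and 46.8% over the 200 without a domain, and the median ratio of observed to expected CpG was 0.46 and 0.40. A GC content of at least 50% with a ratio of at least 0.6, a common definition of a CpG island applied to the whole region, was met by 8 of 42 (19.05%, 9.98–33.3%) and 43 of 200 (21.5%, 16.4–27.7%). These intervals overlap. Repeat-masked bases made up a median of 14.5% and 13.9%. Within the Hox clusters the median ratio was 0.50 in HoxA and 0.34 in HoxC.

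**Figure D5:**
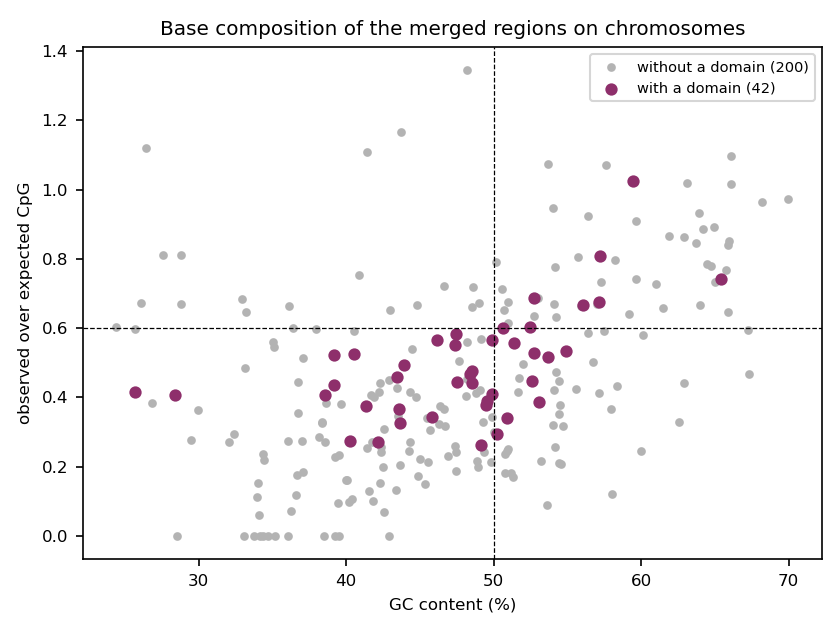
GC content against the ratio of observed to expected CpG for the merged regions on chromosomes, with the 42 that hold a domain in purple and the 200 others in grey. Dashed lines mark 50% GC and a ratio of 0.6, and 8 of the 42 and 43 of the 200 reach both.

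By position, the 42 regions formed 28 loci when those within 10 kb of each other were joined, on 17 chromosomes. Of these loci, 20 held 1 region and 8 held 2 or more, which together took 22 of the regions. The HoxC locus had 13 domains over the 3 lists and the HoxA locus 10. The 42 regions were assigned 53 genes, and 50 of the 53 were found in GENCODE M21. Of these, 30 were protein-coding and 20 were not.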

How the data were processed

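The authors trimmed the reads with cutadapt 1.11, aligned them to mm10 with BWA 0.7.15, removed duplicates and blacklisted regions, kept uniquely mapped pairs, and called narrow peaks with MACS2 in each replicate against input (q under 0.05, slocal 2000). The deposited column read as −log10 q has no name in the lists. Its lowest value was 1.30 in replicate 2, at the threshold, but 2.30 and 2.38 in replicates 1 and 3, so this reading rests on replicate 2. The coordinates of the merged list are those the authors deposited. The study's methods describe this list as merged broad peaks, but its 259 regions equal the narrow peaks of the 3 lists merged, and broad peaks were not analysed here.

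Summits of the same region were joined here into 1 peak. Genes are those that the study assigned to each merged region. Positions and sequence came from GENCODE M21 and GRCm38, the assembly of mm10. All 475 peaks on chromosomes lay within their chromosome's length, and 112 of the 140 assigned genes found in M21 had the same start and end. Copies of 31-base words were counted on both strands of the chromosomes. Shares have 95% Wilson intervals. The measures were tested on simulated data, with Python 3.11.15, numpy 2.4.6, pandas 2.3.3, scipy 1.17.1 and numba 0.67.0.

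The members and the gene lists were chosen with earlier results of these data known. Regions with a domain in all 3 lists were to be named in order of their highest value, here within groups of genes, with the widest domains, those without a gene, those in 1 list only and 3 on each side of the threshold. Some regions that this rule names are counted but not reported here. The alternatives were other width and value thresholds, peaks within 500 bp joined, a stricter overlap, protein-coding transcripts only and each replicate left out.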

Additional observations from a re-analysis of the deposited data

How the results depend on the processing

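Of 65 alternative values of 10 results, 52 differed from the main value by less than the spread between lists, or, for counts, by less than 1.5 times. With a width of at least 3000 bp, 64 domains in 26 regions remained, with a median of 12.5 summits, a TSS inside 73.1% of the regions and a median GC content of 46.9% against 48.0%. With overlaps of at least 50% of both regions, 90.9% of the domains met a peak of another replicate. With protein-coding transcripts only, 35.7% of the regions held a TSS. With each replicate left out in turn, there were 57 to 76 domains in 31 to 41 regions. Their median number of summits was 7 to 10.5, with 2.48 to 3.04 per kb. Of these domains, 84.6 to 100% met a peak and 70.8 to 82.9% a domain of another replicate. The regions were assigned 46 to 53 genes, and 56.1 to 67.7% held a TSS. The median GC content was 47.4 to 48.4% and the median CpG ratio 0.45 to 0.48. Without replicate 3 the number of domains fell to 57 and without replicate 1 to 65, since the lists are added up.

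No paired analysis was possible because the peak lists come from the Ash1L group alone and no groups are compared. The distances between summits, the distance of the highest summit to a TSS and the bases around it were planned but not run, since the lists give no position of a summit. The depth of the libraries is unknown, so its part in the few peaks, the low values and the lack of peaks under 1035 bp in replicate 2 was not tested.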
